A study of Mus musculus with 24 samples.

Results

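Genes that mark eosinophils and basophils were followed in mouse blood: the chemokine and cytokine receptors Ccr3 and Il5ra, the granule proteins Epx and Prg2, the IgE receptor subunits Fcer1a and Ms4a2, and the proteases Cpa3 and Mcpt8. They were chosen by name. Each of these 8 genes had 1 non-control probe, printed as 1 spot, among the 39429 probes for 29711 genes on the array. Blood was drawn from the heart of male C57BL/6J mice 24 h after x-ray exposure and lysed at once for RNA. Gadd45a, the gene named in the genotype labels, encodes a stress-response protein induced by DNA damage. The groups were 5 arrays of Gadd45aWT mice at 0 Gy, 5 of Gadd45aWT mice at 7 Gy, 5 of Gadd45aKO mice at 0 Gy and 9 of Gadd45aKO mice at 7 Gy. No age, further allele or named animal is given in the labels used here, so p-values measure the spread between these arrays, which may be technical in part.

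Eosinophils are granulocytes that depend on interleukin 5 for their growth and survival and enter tissue through the chemokine receptor CCR3. Their granules are loaded with basic proteins and a peroxidase, largely made while the cell is still in the bone marrow, so the transcripts can be scarce in mature cells. Basophils are a rare blood granulocyte that carries the high-affinity IgE receptor and releases histamine and interleukin 4. Mast cells live in tissue, carry the same receptor and store Cpa3 with chymases and tryptases in their granules, and they are not normally found in blood.

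A level is the log2 of the background-subtracted spot signal minus the 75th percentile of its array, so 1 unit is a doubling and negative levels are dimmer than that percentile. Levels of different probes are not set against each other. A probe was measured on an array when the scanner software scored it well above background, and it was tested when that held on at least 5 arrays. The depth of an array is its signal over background: between 25.7% and 50.9% of probes were well above background. KO-labelled 0 Gy replicates 1 and 4 were near-identical and were counted as 1 sample, so that group has n = 4. Repeat spots varied by over 10% on 3 arrays, which were WT 0 Gy replicate 1, KO-labelled 0 Gy replicate 2 and KO-labelled 7 Gy replicate 3.

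The Gadd45a probe was not lower in the arrays labelled as knockout, which are therefore called KO-labelled. At 0 Gy the WT level was 0.65 ± 0.23 (SD, n = 5) and the KO-labelled level 0.51 ± 0.16 (SD, n = 4), a difference of −0.15 ± 0.21 (SE, limma adjusted p = 0.855). At 7 Gy it was higher in KO-labelled arrays by 1.20 ± 0.17 (SE, limma adjusted p = 4.78e-05). The WT levels ran from −1.63 to −0.80 at 7 Gy, below every WT array at 0 Gy (0.29 to 0.86). The KO-labelled levels ran from −0.69 to 0.32 at 7 Gy and from 0.28 to 0.67 at 0 Gy. Whether the probe lies in the deleted part is not given in the sources used here.

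The irradiated arrays also carried hepatocyte transcripts, which blood cells do not normally make. These and a list of peritoneal macrophage genes moved with some results below. The mean level of 8 hepatocyte markers at 0 Gy ran from −7.55 to −7.24 in WT and from −7.93 to −3.38 in the KO-labelled group. After 7 Gy it ran from −2.07 to 2.04 in WT and from −4.45 to −1.93 in KO-labelled arrays. WT 7 Gy replicates 3, 4 and 5 were the highest, and replicates 1 and 2 were near −2.07. A list of 12 genes of large peritoneal macrophages, put together after the values were seen, ran at 0 Gy from −4.64 to −4.05 in WT and from −4.80 to −1.67 in the KO-labelled group. At 7 Gy the ranges of that list were −1.93 to −1.67 and −2.98 to 0.10. On the WT arrays at 0 Gy, 8 to 11 of the 12 genes were already well above background. KO-labelled 0 Gy replicates 2 (−2.60) and 5 (−1.67) stood above the rest of their group in this list. Replicate 5 had all 12 genes well above background, while replicate 2, a noisy array, had 8, beside 9 on replicates 1, 3 and 4. On replicate 2 the probes measured on no array also stood high, with a median of −6.35 against −9.52 to −9.24 elsewhere in the group. B cell markers, by contrast, ran from −0.97 to 0.32 across the 0 Gy arrays and from −6.47 to −3.53 across the 7 Gy arrays. In whole blood, fewer cells of a type and less RNA per cell cannot be told apart.

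Of the 8 genes, 4 were measured widely enough to test: Ccr3 was well above background on 18 of 24 arrays, Cpa3 on 20, Il5ra on 14 and Fcer1a on 14. Epx, Prg2, Ms4a2 and Mcpt8 were not well above background on any array. In WT blood 2 of the 4 tested genes changed after 7 Gy, Cpa3 upward and Il5ra downward, where 23.4% of the 15787 genes tested changed (10.1% upward, 13.3% downward). In KO-labelled blood 3 of the 4 changed, Cpa3 upward and Ccr3 and Il5ra downward, where 47% of all genes changed (12.2% upward, 34.8% downward). The responses differed for 1 of the 4, Ccr3, against 15.7% of all genes (3.08% more upward and 12.6% more downward in KO-labelled arrays). At 7 Gy 1 of the 4, Ccr3 again, was lower in KO-labelled blood, against 22.7% of all genes (4.45% higher and 18.2% lower). At 0 Gy limma called 0 of the 4 between genotype labels, against 0.291% of all genes (0.209% higher and 0.0823% lower). An unadjusted p under 0.05 was seen for 3 of the 4, and the share of all genes at that level is not given here. In KO-labelled 0 Gy replicate 2, a noisy array, no level below −5.07 was well above background, against −7.78 to −7.42 elsewhere in that group. That array was the highest of its group in Ccr3 and Fcer1a. The median change of the 4 genes was 0.13 in WT and −0.79 in KO-labelled arrays, beside −0.05 and −0.26 over all genes tested.

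The direction split over all genes moves with the scaling. Of the KO-labelled response calls, 26.1% were upward here and 46.7% with the 75th percentile over all probes, 39.4% with the median, 39.3% with quantile normalization and 46.5% in the authors' deposited values. For the difference between responses the upward share was 19.7% here and 40.7% to 60.4% under those settings, and for the 7 Gy comparison between labels it was 19.6% here and 33.9% to 48.3%.

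**Figure D1:**
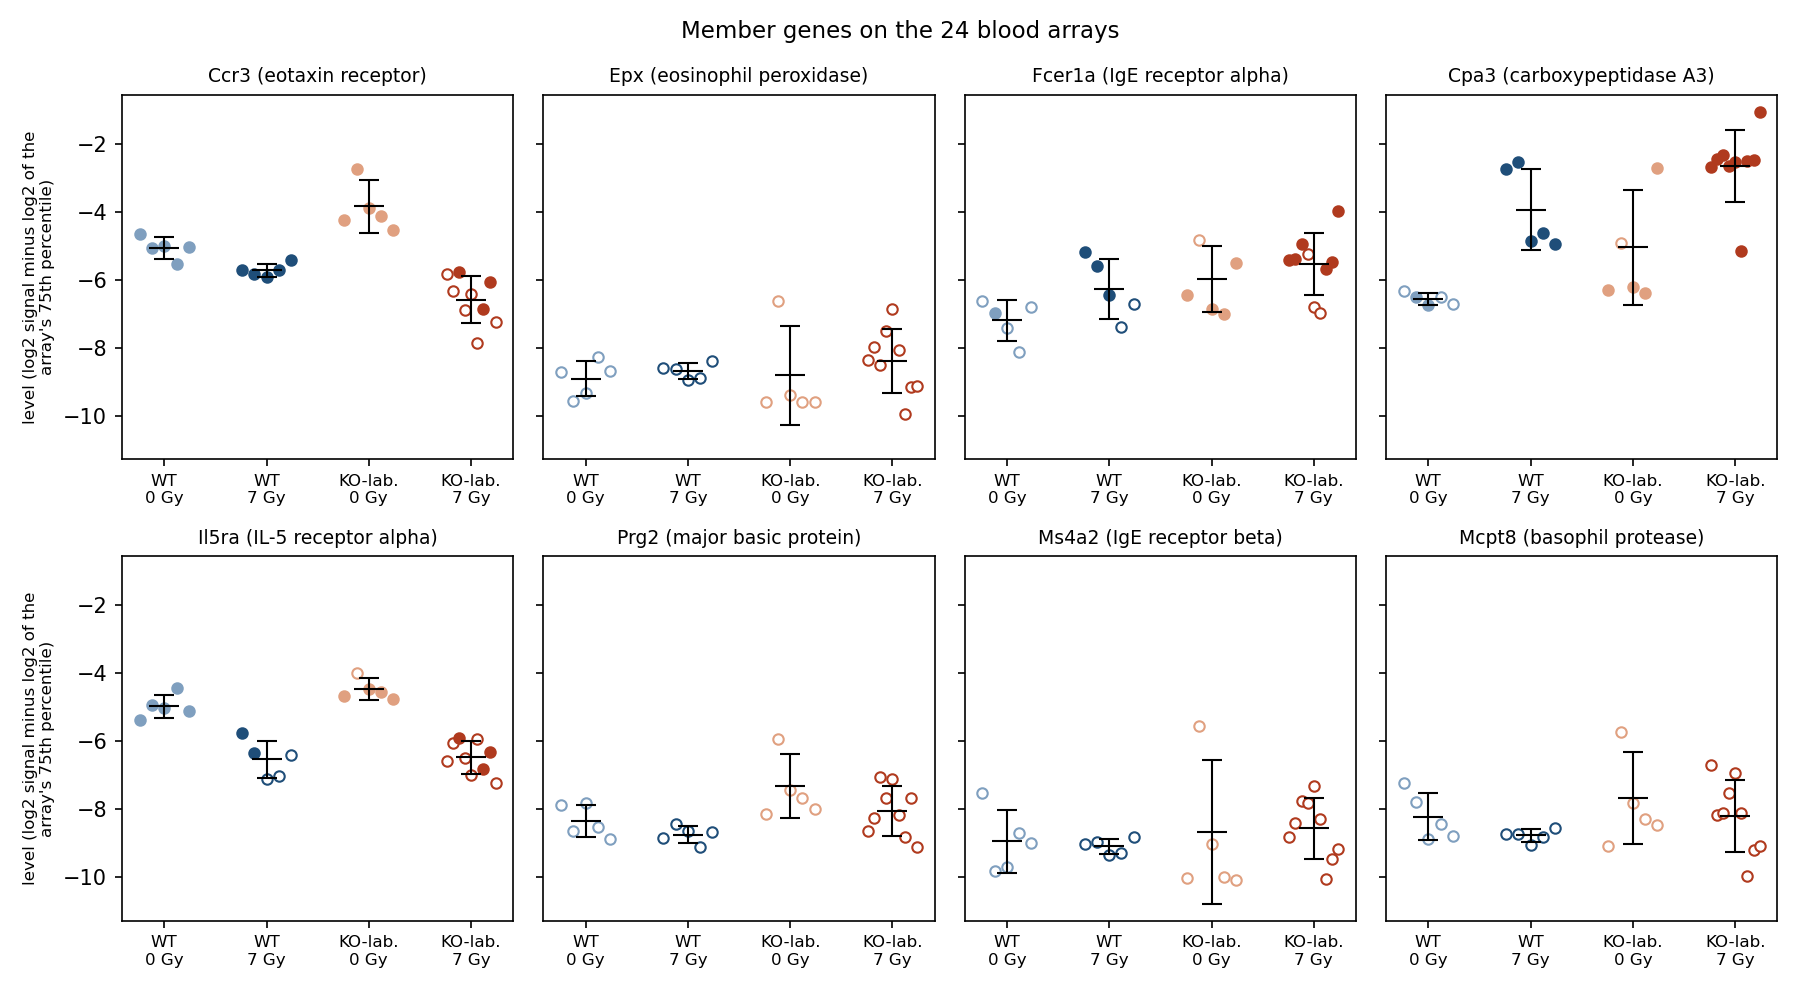
Level of each of the 8 genes on every array, on the scaled log2 scale (vertical) and by group (horizontal), with bars for the mean and SD. Filled points were well above background and open points were not. Ccr3 and Il5ra sit lower at 7 Gy and Cpa3 higher, while Epx, Prg2, Ms4a2 and Mcpt8 have open points only.

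The 4 tested genes share a short sequence upstream of their starts. GATA1, a factor needed for eosinophil, basophil and mast cell development, binds GATA motifs, so the 250 bases before each start were searched for AGATAA and TGATAA on both strands. At least 1 of the pair of motifs was in 5 of the 7 members with a promoter in the RefSeq table (GRCm38.p6), beside 5452 of all 32851 promoters of that length, which is 16.6%. The matches were all AGATAA or its reverse complement TTATCT. Ms4a2 had 3, and Ccr3, Il5ra, Fcer1a and Cpa3 had 1 each. Epx and Mcpt8 had none in this window. A match of letters is a description of the sequence and not a measured binding site. The 4 sequences below belong to the genes with measured levels, read 5′ to 3′ towards the start, with the match in capitals. They lie at chr9:124021721-124021970 (plus strand) for Ccr3, chr6:106749038-106749287 (minus strand) for Il5ra, chr1:173227230-173227479 (minus strand) for Fcer1a and chr3:20242182-20242431 (minus strand) for Cpa3, with matches that begin 30, 74, 92 and 46 bases before the start.
Ccr3: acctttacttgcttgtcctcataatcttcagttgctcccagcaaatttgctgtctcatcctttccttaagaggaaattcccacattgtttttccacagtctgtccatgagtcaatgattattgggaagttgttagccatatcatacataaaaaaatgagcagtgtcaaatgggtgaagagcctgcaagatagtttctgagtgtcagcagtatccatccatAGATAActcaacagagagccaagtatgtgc
Il5ra: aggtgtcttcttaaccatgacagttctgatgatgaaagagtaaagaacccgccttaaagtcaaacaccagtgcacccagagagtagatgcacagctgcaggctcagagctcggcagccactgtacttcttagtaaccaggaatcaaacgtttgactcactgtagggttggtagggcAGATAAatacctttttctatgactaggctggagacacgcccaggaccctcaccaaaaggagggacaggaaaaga
Fcer1a: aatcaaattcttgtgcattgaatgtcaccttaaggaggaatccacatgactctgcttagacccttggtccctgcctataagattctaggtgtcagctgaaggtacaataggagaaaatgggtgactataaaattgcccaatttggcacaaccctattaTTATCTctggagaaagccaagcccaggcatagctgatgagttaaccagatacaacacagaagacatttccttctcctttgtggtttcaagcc
Cpa3: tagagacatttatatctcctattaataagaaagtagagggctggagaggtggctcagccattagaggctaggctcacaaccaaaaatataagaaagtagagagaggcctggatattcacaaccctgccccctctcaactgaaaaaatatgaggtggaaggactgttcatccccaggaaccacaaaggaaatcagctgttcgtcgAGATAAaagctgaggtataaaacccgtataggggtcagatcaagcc

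Ccr3, the receptor for eotaxins on eosinophils, was lower after irradiation in every KO-labelled array and differed in its response between labels. Its probe lies at chr9:123945225-123945284 (mm9, plus strand). In WT blood at 0 Gy the levels in replicates 1 to 5 were −4.65, −5.08, −5.02, −5.54 and −5.03, and at 7 Gy −5.72, −5.84, −5.92, −5.72 and −5.42. In KO-labelled blood at 0 Gy they were −4.25, −2.75, −3.90, −4.11 and −4.54. The 9 KO-labelled arrays at 7 Gy had a lowest level of −7.87, a median of −6.41 and a highest of −5.76, and 3 of the 9 were well above background. The KO-labelled groups did not overlap, while the WT groups overlapped because replicate 4 at 0 Gy was lower than irradiated replicate 5.

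The change of Ccr3 in KO-labelled blood was −2.74 ± 0.33 (SE, n = 4 and 9, limma adjusted p = 9.88e-07), set against a group in which 6 of 9 arrays were not well above background. In WT blood the change was −0.66 ± 0.35 (SE, n = 5 and 5, limma adjusted p = 0.193). The difference between these responses was −2.08 ± 0.48 (SE, 95% interval −3.08 to −1.08, limma adjusted p = 0.00786). Without WT 7 Gy replicates 3, 4 and 5, the arrays highest in hepatocyte markers, it was −2.02 and missed the threshold (limma adjusted p = 0.0523). The array slides give a check within batches, since slides 1 to 5 each held 1 array of each group. On each of these 5 slides Ccr3 was lower after 7 Gy in both labels. The changes were −1.07 to −0.18 in WT and −3.58 to −1.59 in KO-labelled arrays, and the KO-labelled fall was larger on all 5. The KO-labelled 0 Gy arrays of slides 1 and 4 are the near-identical pair. Slide counts for KO-labelled arrays, here and below, are therefore not 5 separate checks.

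Both ends of the Ccr3 response differed in level between labels, and neither difference was firm. At 0 Gy the KO-labelled mean was −3.84 ± 0.78 (SD, n = 4) against −5.06 ± 0.32 (SD, n = 5), and the groups did not overlap, in a comparison where 0.291% of genes were called. The difference of 1.22 ± 0.37 (SE) had a limma adjusted p of 0.233, which became 0.046 with the replicate block and 0.117 with the slide as the block (1.15 in each). In the blocked fits KO-labelled 0 Gy replicates 1 and 4 entered as separate arrays. At 7 Gy Ccr3 was lower in KO-labelled arrays by 0.86 ± 0.31 (SE, limma adjusted p = 0.0491). That call was lost in 12 of 17 alternative settings and in 18 of 24 fits that left out 1 array, with −0.52 and an adjusted p of 0.138 under the replicate block. By mean level the order was KO-labelled 0 Gy, WT 0 Gy, WT 7 Gy and KO-labelled 7 Gy. The upper 2 neighbours and the middle 2 did not differ at the threshold, and the lower 2 did in the setting used here and in 5 of the 17 others.

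Il5ra, the subunit of the interleukin 5 receptor that gives eosinophils their response to that cytokine, was lower after 7 Gy under both labels, with no group overlap. Its probe lies at chr6:106660378-106660437 (mm9, minus strand). The WT levels at 0 Gy were −5.39, −4.93, −5.04, −4.44 and −5.10 in replicates 1 to 5, all measured, and at 7 Gy −5.77, −6.36, −7.10, −7.03 and −6.41, of which 2 were well above background. In KO-labelled blood at 0 Gy they were −4.67, −4.005, −4.48, −4.56 and −4.77, of which 4 were well above background. The 9 irradiated KO-labelled arrays ran from −7.22 to −5.91 with a median of −6.48, of which 3 were well above background. Every irradiated array was below every 0 Gy array under either label.

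The change of Il5ra was −1.56 ± 0.28 in WT (SE, n = 5 and 5, limma adjusted p = 0.000237). In KO-labelled blood it was −2.02 ± 0.27 (SE, n = 4 and 9, limma adjusted p = 2.76e-06). Most irradiated arrays were not well above background, so both sizes are set against dim groups and no fold is given. The responses differed by −0.46 ± 0.39 (SE, limma adjusted p = 0.434), with a 95% interval of −1.26 to 0.34, so a difference of a doubling is within the interval. Within slides it fell on 5 of 5 under either label, with changes of −2.59 to −0.39 in WT and of −2.24 to −1.42 in KO-labelled arrays. Without the 3 WT 7 Gy arrays highest in hepatocyte markers the WT change was −1.09 (limma adjusted p = 0.0522). The KO-labelled 0 Gy and WT 0 Gy groups were the highest and did not differ at the threshold (0.51, limma adjusted p = 0.615), nor did the irradiated groups (0.05, limma adjusted p = 0.903).

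Both receptor falls lost their calls under another background method. With the normexp method, which fits the background from the brightness of all spots, the Ccr3 change in KO-labelled arrays was −0.31 (limma adjusted p = 0.727) and the Il5ra changes were 0.47 in WT and 0.08 in KO-labelled arrays. That setting adds an offset of 50 to each signal. With no added offset these values were −1.02, 0.41 and −0.40, and no receptor change passed the threshold. The 13224 probes that were measured on no array moved in the same comparisons: by 0.17 in WT and 0.52 in KO-labelled arrays in the values used here, by 1.04 and 0.74 under normexp, and by 1.74 and 0.74 under normexp with no offset. Arrays of a group also differed widely under normexp. With no offset, the median level of these probes ran from −7.33 to −0.64 over KO-labelled 7 Gy arrays. Over WT 7 Gy arrays it ran from −6.09 to −2.78. In the values used here the ranges were −9.82 to −6.89 and −8.86 to −8.33. The part of these shifts and spreads in the receptor results was not tested. Of 47 calls of other genes named from the lists below, 12 were kept under normexp and 11 with no offset, 36 in the deposited values, and 33 without WT 7 Gy replicates 3, 4 and 5.

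**Figure D2:**
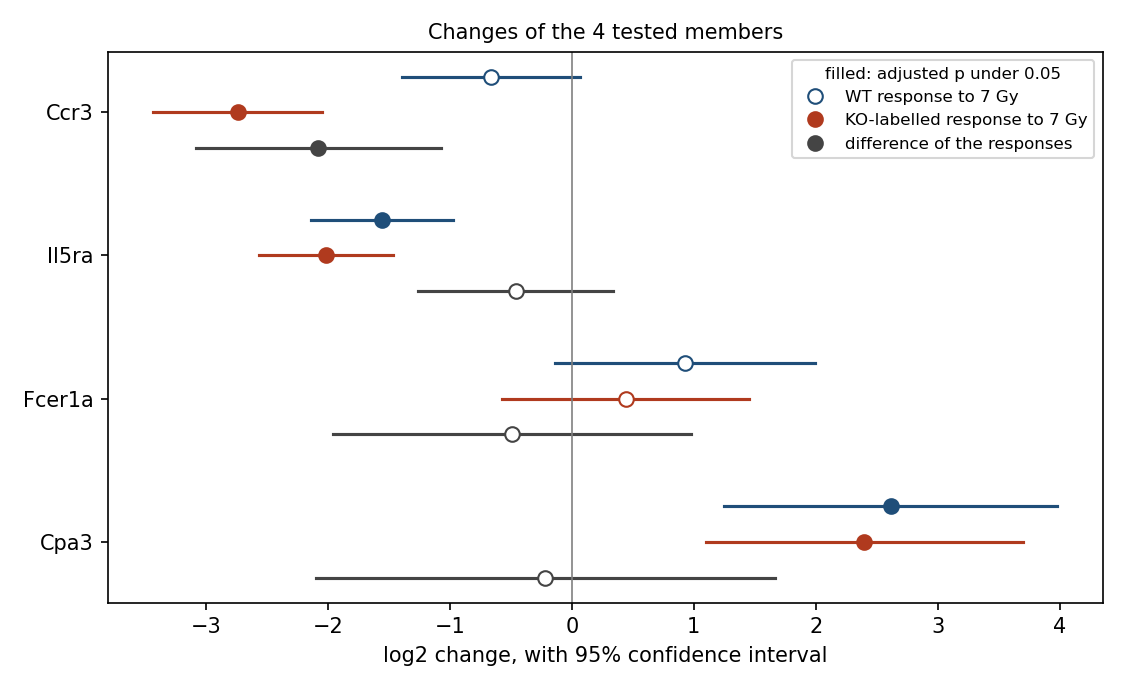
Log2 change of each tested gene with its 95% interval in WT, in KO-labelled arrays and for the difference between these responses, from limma fitted across all genes. Filled points passed the adjusted threshold. The Ccr3 interval for the difference between responses, −3.08 to −1.08, stays below 0, while those of Il5ra, Fcer1a and Cpa3 span 0.

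**Figure D3:**
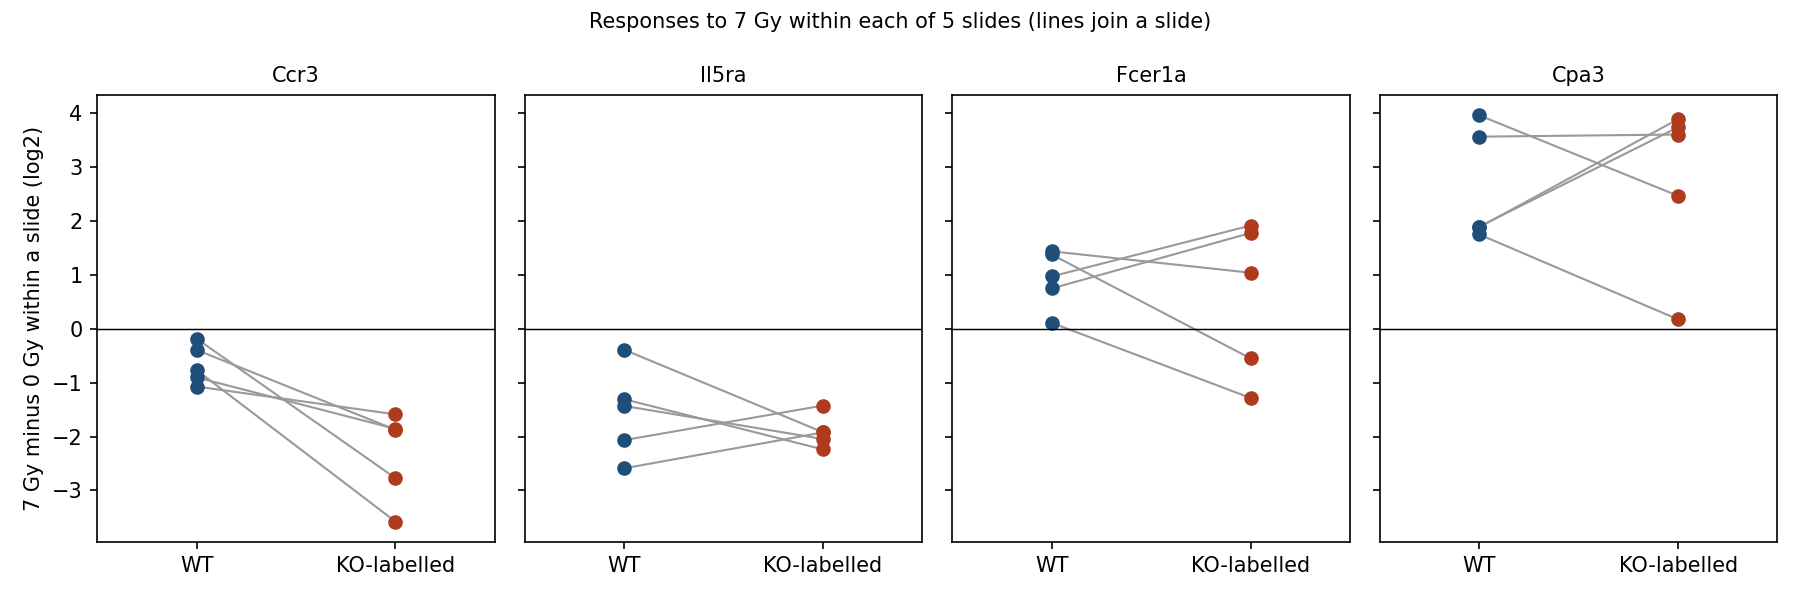
Change within each of the 5 slides that held 1 array of every group, as the log2 level at 7 Gy minus that at 0 Gy (vertical) for WT and KO-labelled pairs (horizontal), with a line joining each slide. Ccr3 and Il5ra fell on every slide under both labels and Cpa3 rose on every slide, while Fcer1a rose on 5 WT and 3 KO-labelled pairs. The KO-labelled 0 Gy arrays of slides 1 and 4 were near-identical.

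The granule proteins Epx, the eosinophil peroxidase, and Prg2, the major basic protein, gave no measured level. Their probes lie at chr11:87678288-87678347 (mm9, minus strand) and chr2:84822799-84822858 (mm9, plus strand). Each was not well above background on 24 of 24 arrays, so no fold is given. Prg3, a close relative of Prg2, was in the same position.

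Other eosinophil granule and surface genes from the list used here were measured, and 4 of 7 fell in KO-labelled blood, where 34.8% of all genes did. Of 9 listed genes 7 were tested: in WT 2 rose and 3 fell, and in KO-labelled arrays 2 rose and 4 fell. Of all genes 10.1% rose and 13.3% fell in WT, and 12.2% rose in KO-labelled arrays. The responses differed for 4, all lower in KO-labelled arrays, beside 12.6% of all genes. At 7 Gy 4 were lower in KO-labelled blood, beside 18.2% of all genes. At 0 Gy limma called 0, with 0 at an unadjusted p under 0.05. Ear2, an eosinophil-associated ribonuclease, had a level of −1.31 ± 0.19 in WT at 0 Gy (SD, n = 5), −2.74 ± 0.68 in WT at 7 Gy (SD, n = 5), −0.75 ± 0.46 in KO-labelled blood at 0 Gy (SD, n = 4) and −4.21 ± 0.50 at 7 Gy (SD, n = 9). Its change was −1.43 in WT (limma adjusted p = 0.00137) and −3.47 in KO-labelled blood (limma adjusted p = 6.2e-09), and the responses differed by −2.04 (limma adjusted p = 0.00428). The irradiated WT arrays split: Ear2 was −2.07 and −1.94 in replicates 1 and 2, and −3.41, −3.24 and −3.05 in replicates 3 to 5, the arrays highest in hepatocyte markers. Without those 3 the WT change was −0.70 (limma adjusted p = 0.264) and the difference −2.77 (limma adjusted p = 0.00126), and no listed gene passed the threshold in WT. Ear1 and Ear10 gave similar values, with changes of −3.34 and −3.21 in KO-labelled blood (limma adjusted p = 6.23e-09 and 6.2e-09). These ribonuclease genes are close copies of each other, so their probes may share signal and they are not separate evidence. Of 4 tested monocyte markers 2 fell and 0 rose in WT, and the same counts held in KO-labelled arrays. The response of 1 of the 4 was lower in KO-labelled arrays, and at 7 Gy 2 were lower there, beside 12.6% and 18.2% of all genes. The part of monocytes in the Ear results was not tested. The Ear2 fall in KO-labelled blood kept its call under normexp (−2.11, limma adjusted p = 0.00232), while those of Ear1 (−0.92, limma adjusted p = 0.349) and Ear10 (−1.07, limma adjusted p = 0.233) lost theirs.

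Siglecf, the sialic acid receptor used to sort mouse eosinophils, fell in KO-labelled blood and split in irradiated WT blood. Its level was −4.61 ± 0.13 in WT at 0 Gy (SD, n = 5), −4.43 ± 0.70 in WT at 7 Gy (SD, n = 5), −4.31 ± 0.46 in KO-labelled blood at 0 Gy (SD, n = 4) and −7.20 ± 0.57 at 7 Gy (SD, n = 9). Of the irradiated KO-labelled arrays 2 of 9 were well above background. The KO-labelled change was −2.89 ± 0.31 (SE, limma adjusted p = 1.78e-07) and the WT change 0.18 ± 0.32 (SE, limma adjusted p = 0.773). WT 7 Gy replicates 1 and 2 (−4.97 and −5.35) lay below every WT array at 0 Gy, and replicates 3 to 5 (−4.13, −3.96 and −3.72) lay above every one. Without replicates 3 to 5 the WT change was −0.55 (limma adjusted p = 0.47) and the difference between responses −2.34 (limma adjusted p = 0.00647). Over all arrays the difference was −3.07 ± 0.45 (SE, limma adjusted p = 0.000512), and it lost its call under normexp (−0.78, limma adjusted p = 0.999). Alox15, a lipoxygenase, and Adgre1, the F4/80 antigen, went the other way and rose in WT by 3.36 ± 0.70 and 1.85 ± 0.49 (SE, limma adjusted p = 0.00112 and 0.00749). Without WT 7 Gy replicates 3 to 5 these were 3.12 and 2.03 and missed the threshold (limma adjusted p = 0.0526 and 0.0727). Both are also on the peritoneal macrophage list, whose level was higher in all irradiated WT arrays than in all WT arrays at 0 Gy. The part of that list in their rise was not tested.

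**Figure D4:**
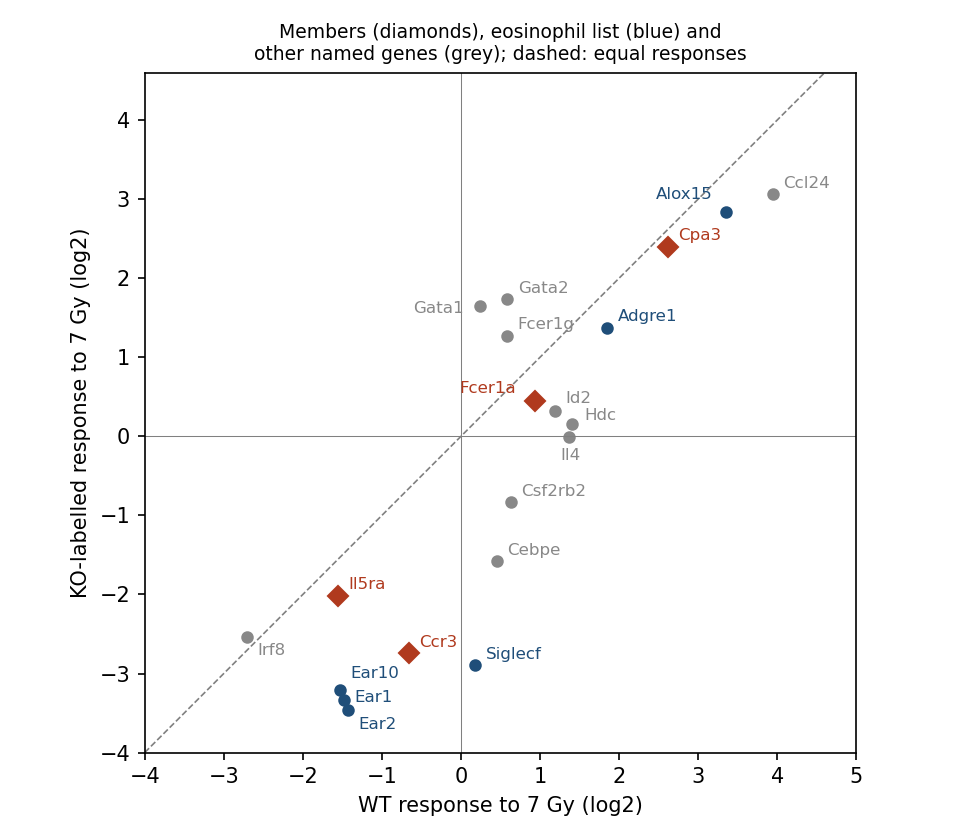
Log2 response to 7 Gy in WT (horizontal) and KO-labelled arrays (vertical) for the tested members (diamonds), eosinophil list genes with a call (blue) and other named genes (grey). The dashed line marks equal responses. Ear1, Ear2, Ear10 and Ccr3 lie lower on the KO-labelled axis than on the WT axis, Siglecf lies near 0 in WT and at −2.89 in KO-labelled arrays, and Ccl24, Alox15 and Cpa3 are high on both.

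Fcer1a, the subunit of the high-affinity receptor that binds IgE, spread widely and passed no threshold. Its probe lies at chr1:175151438-175151497 (mm9, minus strand). The WT levels were −6.62, −6.97, −7.42, −8.13 and −6.81 at 0 Gy, of which 1 was well above background, and −5.18, −5.59, −6.45, −7.38 and −6.70 at 7 Gy, of which 3 were. In KO-labelled blood at 0 Gy they were −6.45, −4.84, −6.85, −7.01 and −5.51, of which 4 were well above background. At 7 Gy they ran from −6.97 to −3.99 with a median of −5.41, of which 6 of 9 were. The groups overlapped in both labels. The change was 0.93 ± 0.51 in WT (SE, limma adjusted p = 0.215) and 0.44 ± 0.49 in KO-labelled blood (SE, limma adjusted p = 0.485), and the responses differed by −0.49 with a 95% interval of −1.96 to 0.98. Within slides it rose on 5 of 5 in WT, by 0.11 to 1.44, and on 3 of 5 in KO-labelled arrays. By mean level the order was KO-labelled 7 Gy, KO-labelled 0 Gy, WT 7 Gy and WT 0 Gy, and the outer pairs of neighbours did not differ at the threshold, while the middle pair was not tested.

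Ms4a2, the beta subunit that amplifies signals from the same receptor, was not well above background on any array (probe at chr19:11691701-11691760, mm9, minus strand). The gamma subunit, Fcer1g, is shared with other Fc receptors and is made by many myeloid cells. Fcer1g rose from 2.69 ± 0.05 to 3.27 ± 0.25 in WT (SD, n = 5 and 5, limma adjusted p = 0.0268) and from 2.04 ± 0.41 to 3.31 ± 0.28 in KO-labelled blood (SD, n = 4 and 9, limma adjusted p = 5.49e-06). It was 1 of 10 tested genes of IgE receptor signalling. Of these 3 rose and 2 fell in WT, beside 10.1% and 13.3% of all genes. In KO-labelled arrays 2 rose and 5 fell, beside 12.2% and 34.8%. Plcg2, a phospholipase also used by the B cell receptor, changed by −0.88 in WT and by −1.69 in KO-labelled blood (limma adjusted p = 0.0142 and 8.11e-06). Btk, a kinase also used by the B cell receptor, fell by 0.86 in WT (limma adjusted p = 0.0031). The kinase Fyn rose by 0.78 in WT (limma adjusted p = 0.0112), and the adaptor Lat2 fell by 1.14 in KO-labelled blood (limma adjusted p = 0.0185). All 5 B cell markers fell under both labels, with a median change of −4.88 in WT and −5.19 in KO-labelled arrays, and their part in the Plcg2 and Btk falls was not tested. The Lat2 change lost its call without KO-labelled 0 Gy replicate 5 (−0.999, limma adjusted p = 0.0711). Between the responses limma called 0 of the 10 and at 0 Gy also 0, with 3 and 1 at an unadjusted p under 0.05. At 7 Gy Plcg1 was lower in KO-labelled blood by 0.76 (limma adjusted p = 0.0429), but its 2 probes moved in opposite directions after irradiation (0.36 and −0.52 in WT, −0.73 and 0.51 in KO-labelled arrays). Of 24 fits that left out 1 array, 13 lost the call, with a difference of −0.88 to −0.56 and an adjusted p of up to 0.093.

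Cpa3, a carboxypeptidase of mast cell and basophil granules, was the member that rose, and it did so under both labels. Its probe lies at chr3:20115674-20115733 (mm9, minus strand). The WT levels at 0 Gy were −6.32, −6.51, −6.73, −6.52 and −6.71, of which 2 were well above background, and at 7 Gy −2.75, −2.55, −4.85, −4.62 and −4.96, all measured. The WT groups did not overlap, and the irradiated arrays fell into a higher pair (replicates 1 and 2) and 3 lower ones. In KO-labelled blood at 0 Gy they were −6.30, −4.91, −6.22, −6.38 and −2.72, of which 4 were well above background, so replicate 5 was as high as the irradiated arrays. In the irradiated KO-labelled arrays the levels in replicates 1 to 9 were −2.69, −2.44, −2.33, −2.64, −2.54, −5.15, −2.51, −2.48 and −1.05, all measured. Replicate 6 stood below the other 8 and overlapped the 0 Gy group.

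The rise of Cpa3 was 2.61 ± 0.66 in WT (SE, n = 5 and 5, limma adjusted p = 0.0053). In KO-labelled blood it was 2.40 ± 0.63, or 5.27-fold (SE, n = 4 and 9, limma adjusted p = 0.00309). The responses differed by −0.22 ± 0.91 (SE, limma adjusted p = 0.894) with a 95% interval of −2.10 to 1.67, so this design leaves room for a difference of more than a doubling either way. Within slides Cpa3 rose on 5 of 5 under either label, by 1.75 to 3.97 in WT and by 0.18 to 3.89 in KO-labelled arrays. At 7 Gy it differed between labels by 1.30 (limma adjusted p = 0.116), which became 1.61 (limma adjusted p = 0.026) without KO-labelled replicate 6 and 0.00059 once WT replicates 3, 4 and 5 were left out. By mean level the order was KO-labelled 7 Gy, WT 7 Gy, KO-labelled 0 Gy and WT 0 Gy. The upper 2 neighbours did not differ at the threshold, nor did the lower 2 (1.51, limma adjusted p = 0.511), and the middle 2 were not tested. Mcpt8, the basophil protease that mast cells lack, was not well above background on any array (probe at chr14:56702300-56702674, mm9, minus strand, whose ends lie 375 bases apart).

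The tested mast cell markers moved with Cpa3. Of 9 such markers 3 were tested, and all 3 rose under both labels, beside 10.1% of all genes in WT and 12.2% in KO-labelled arrays. Cma1, a chymase, rose by 2.74 in WT and 2.35 in KO-labelled arrays (limma adjusted p = 0.00183 in each). Mcpt4, another chymase, rose by 3.31 and 2.62 (limma adjusted p = 0.000844 and 0.0018), and the tryptase Tpsb2 by 1.34 and 1.76 (limma adjusted p = 0.0439 and 0.00273). The receptor genes Mrgprb1 and Mrgprb2 and the tryptase Tpsab1 were not well above background on any array, and Kit, the receptor for stem cell factor, was so on 4. Mcpt1 and Mcpt2 were well above background on 1 and 2 arrays. Their mean levels in WT were −8.06 and −7.56 at 0 Gy and lower at 7 Gy, at −8.57 and −8.01. In KO-labelled arrays they were −8.71 and −7.50 at 0 Gy and −8.08 and −7.54 at 7 Gy. The mean over the 9 markers ran at 0 Gy from −8.04 to −7.39 in WT and from −8.02 to −6.12 in the KO-labelled group. The −6.12 was that of replicate 2, a noisy array with 1 of the 9 markers well above background. At 7 Gy the ranges were −7.35 to −5.99 and −6.98 to −5.37. The arrays out of line in Cpa3, KO-labelled 0 Gy replicate 5 and KO-labelled 7 Gy replicate 6, were also the highest and the lowest of their groups in the peritoneal macrophage list. Without those 2 arrays Cpa3 rose by 3.49 in KO-labelled blood. The part of mast cells or peritoneal cells in the Cpa3 result was not tested.

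**Figure D5:**
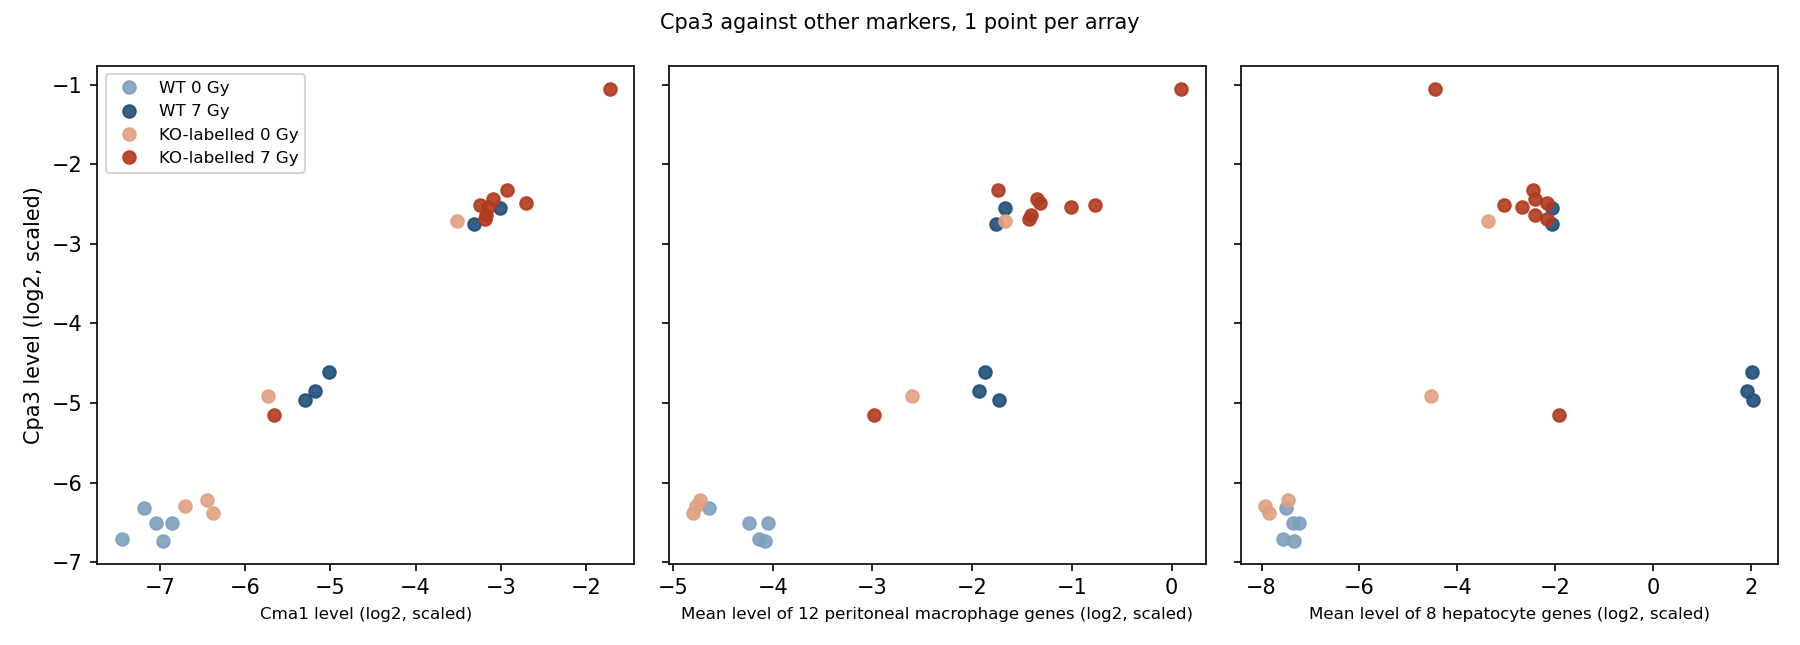
Cpa3 level on each array (vertical, scaled log2) against the level of Cma1 and the mean level of 12 peritoneal macrophage genes and of 8 hepatocyte genes (horizontal, scaled log2), by group. The irradiated KO-labelled array at −5.15 and the unirradiated one at −2.72 lie away from their groups in the first and middle panels, and the WT 7 Gy arrays split in the hepatocyte panel.

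The genes whose pattern was most like Cpa3 were the chymases, by Pearson's r of deviations from group means over 23 samples and 15713 genes with a value on every array. It was 0.98 for Cma1 and 0.98 for Mcpt4, and 0.99 for either in levels. A probe with no gene name was the other of its 3 closest. These values describe arrays that share slides and a scaling. With Fcer1a the r of Cpa3 was 0.72 in deviations and 0.79 in levels. The closest genes to Fcer1a were Ccdc166 (0.86), Rnf126 (0.85) and Nrd1 (0.85), to Il5ra Il4 (0.74), Supt3 (0.72) and Sp3os (0.71), and to Ccr3 Gm8149 (0.91), Olfr1135 (0.90) and Dmrtb1 (0.89). Without the 3 arrays of noisy repeat spots the closest genes of Cpa3 were unchanged, whereas those of the other 3 genes were not all the same: Ccr3 had Prr7, Gm8149 and Paqr6, Il5ra had Camp, Psmd4 and 2700097O09Rik, and Fcer1a had Nrd1, Ak6 and Naa15. Ccr3 and Il5ra had an r of 0.77 in levels and 0.17 in deviations, so the shared part of their pattern was the difference between groups.

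Of 9 further basophil genes 5 were tested: 3 rose in WT, 1 rose in KO-labelled arrays and none of the 5 fell in either. Il13, Cd200r3, Cyp11a1 and Ptgdr2 were not tested. Cd200r3, like Ms4a2 and Mcpt8, was not well above background on any array, while Hdc was on all 24. Of all genes 10.1% rose and 13.3% fell in WT, and 12.2% rose and 34.8% fell in KO-labelled arrays. Il4, the cytokine of basophils and helper T cells, had a level of −5.17 ± 0.25 in WT at 0 Gy and −3.81 ± 0.47 at 7 Gy (SD, n = 5 and 5). It rose by 1.36 in WT (limma adjusted p = 0.000734) and changed by −0.01 in KO-labelled blood (limma adjusted p = 0.977), and the responses differed by −1.37 (limma adjusted p = 0.0184), a call lost in 7 of 17 alternative settings. Hdc, which makes histamine, rose by 1.41 in WT (limma adjusted p = 0.0178) and was lower in KO-labelled blood at 7 Gy by 1.76 (limma adjusted p = 0.00162). The WT rise of Hdc lost its call without any one of WT 7 Gy replicates 3, 4 and 5, the arrays highest in hepatocyte markers (1.14 to 1.27, with limma adjusted p-values of 0.0535 to 0.0645). Itga2, an integrin subunit that basophils share with platelets and NK cells, rose by 0.99 and 1.63 (limma adjusted p = 0.000346 and 2.1e-07). Of 5 platelet markers 3 rose in WT and 4 in KO-labelled arrays, and their part in the Itga2 rise was not tested. At 0 Gy limma called 0 of the 5, with 1 at an unadjusted p under 0.05.

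In the interleukin 5 and common beta receptor pathway 8 of 10 genes were tested. In WT limma called 0 of the 8, with 2 at an unadjusted p under 0.05, beside 23.4% of all genes called. In KO-labelled blood 1 rose and 2 fell, beside 12.2% and 34.8% of all genes. Stat5a, which carries the cytokine signal to the nucleus, fell by 1.14 (limma adjusted p = 0.000537). The interleukin 3 receptor subunit Il3ra rose by 0.84 (limma adjusted p = 0.00545). Csf2rb, the common beta chain that pairs with the Il5ra product, was lower in KO-labelled blood at 7 Gy by 2.12 (limma adjusted p = 0.00672). Its close copy Csf2rb2 was lower by 1.48 (limma adjusted p = 0.000737), fell by 0.83 in KO-labelled blood (limma adjusted p = 0.0304) and differed in response by −1.46 (limma adjusted p = 0.0308). Without KO-labelled 0 Gy replicate 5 the fall of Csf2rb2 (−0.58, limma adjusted p = 0.169) and its difference (−1.21, limma adjusted p = 0.09) missed the threshold. The fall also missed it without KO-labelled 7 Gy replicate 3 (−0.75, limma adjusted p = 0.0501), and the difference without WT 0 Gy replicate 3 or any one of WT 7 Gy replicates 3, 4 and 5 (−1.43 to −1.30, limma adjusted p = 0.0508 to 0.0625). At 0 Gy limma called 0 of the 8, with 0 at an unadjusted p under 0.05.

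Of 5 ligands of CCR3 2 were measured. Ccl24, an eotaxin made by macrophages, rose from −7.32 ± 0.73 to −3.37 ± 0.55 in WT (SD, n = 5 and 5) and from −6.25 ± 2.51 to −3.19 ± 0.98 in KO-labelled blood (SD, n = 4 and 9). The changes were 3.94 and 3.06 (limma adjusted p = 0.00039 and 0.00111), and the peritoneal macrophage list moved the same way. Its part in the Ccl24 rise was not tested. Ccl5, a chemokine of T cells and platelets, rose by 0.87 in WT (limma adjusted p = 0.0141). Between the responses and at 0 Gy limma called 0 of the 2, with 1 at an unadjusted p under 0.05 in each, and at 7 Gy it called 0, with 0.

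All 10 transcription factors of the eosinophil and basophil lineages were tested: 1 rose and 1 fell in WT, and 4 rose and 2 fell in KO-labelled arrays. Among all genes 10.1% rose and 13.3% fell in WT, and 12.2% rose and 34.8% fell in KO-labelled arrays. Irf8, which directs progenitors to monocytes and dendritic cells and is also made by B cells, changed by −2.71 in WT and −2.53 in KO-labelled blood (limma adjusted p = 8.89e-07 and 6.26e-07). Gata1 rose in KO-labelled blood by 1.64 (limma adjusted p = 1.76e-06), from −1.16 ± 0.41 to 0.48 ± 0.39 (SD, n = 4 and 9), and its response differed from that of WT by 1.40 (limma adjusted p = 0.00485). Gata2 rose there by 1.74 (limma adjusted p = 2.87e-06). Red cell precursors and platelets also carry Gata1, and in the same arrays 4 of 5 platelet markers rose, while of 5 erythroid markers 2 rose and 3 fell (median −1.44). The part of these cells was not tested. Cebpe, needed for the late granules of eosinophils and neutrophils, was lower in KO-labelled blood at 7 Gy by 1.80 (limma adjusted p = 0.00143) and differed in response by −2.03 (limma adjusted p = 0.0239). Gfi1, a transcriptional repressor that acts in granulocyte development, differed in response by −1.47 (limma adjusted p = 0.0297), and Spi1 was lower at 7 Gy by 1.16 (limma adjusted p = 0.0295). At 7 Gy 4 of 8 neutrophil markers were lower and 1 was higher in KO-labelled blood, beside 18.2% and 4.45% of all genes. Their part was not tested. The Cebpe difference lost its call without KO-labelled 0 Gy replicate 2 (−1.84, limma adjusted p = 0.0567). That of Gfi1 lost it without KO-labelled 0 Gy replicate 5, WT 0 Gy replicate 4 or WT 7 Gy replicate 2 (−1.46 to −1.26, limma adjusted p = 0.0506 to 0.0841). The Spi1 call was lost without KO-labelled 7 Gy replicate 2 or any one of WT 7 Gy replicates 3, 4 and 5 (−1.06 to −0.98, limma adjusted p = 0.0543 to 0.101). At 0 Gy limma called 0 of the 10, with 3 at an unadjusted p under 0.05.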

How the data were processed

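Spot intensity on 24 one-colour arrays was measured by the authors with Agilent Feature Extraction 12.0.2, per the file headers; the processed signal is background-subtracted within each array. The authors deposited, beside it, the software's flag for a spot well above background (another measure, not a level). The deposited value table holds log2 values of 12900 entries. Set against the scanner files, each of its columns was the log2 processed signal plus a constant per array of 0 to 1.54, so scale is known and the choice of constant is not; its column medians ran from 5.76 to 7.18, and 0 of its columns lay outside the series.

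Repeat spots were averaged without control and outlier-flagged spots, and log2 signals were scaled to the 75th percentile over 7857 probes detected above background on every array. Genes well above background on at least 5 arrays, each by its brightest probe, gave 15787 genes. One limma 3.58.1 fit in R 4.3.3 (data handling by data.table, release 1.17.8) of the 4 groups gave 5 contrasts, two-sided, at a Benjamini-Hochberg adjusted p under 0.05. Figures used Python 3.11.15 and matplotlib 3.10.9. Data were simulated for 15713 genes with independent noise and 100 genes changed at each size. There 28% of log2 changes of 1 and 70% of those of 2 were called in the WT contrast, and 36% and 77% in the KO-labelled contrast. In the real contrasts 23.4% and 47% of genes were called, so these rates need not hold there. The number of arrays limits the precision.

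Probes were named by accession (28663), symbol (3300), older symbol (160) or the files' own name (7306). Probe positions are on mm9, the build in the file headers, and promoters from RefSeq on GRCm38.p6. Arrays were called near-identical when they differed less than repeat spots of the same array do. Replicate numbers 1 to 5 match slides 1 to 5, per the file headers, and KO-labelled 7 Gy replicates 6 to 9 share slide 6. In both blocked fits replicates 6 to 9 have no other group in their block, so the contrasts rest on replicates 1 to 5. The replicate block and the slide block therefore differ in the estimate of spread and not in the size of a change. The correlation of deviations was 0.20 in the median over 30 same-numbered pairs and −0.03 over 180 others. From each list, up to 3 genes with the largest called change per comparison are named, and others are marked. The members, lists and tests were chosen with earlier results of these data known. Alternatives were other backgrounds, scalings, filters, blocks and arrays left out.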

Additional observations from a re-analysis of the deposited data

Results flagged for a closer look

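In KO-labelled 7 Gy blood, Cpa3 in replicate 6 was −5.15, with the nearest of the other 8 arrays at −2.69, a gap beyond Dixon's 95% critical value; 1 of 16 groups tested was so marked, and chance marks about 1 in 20.

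The response to 7 Gy differed between KO-labelled and WT arrays in the limma fit for 9 named genes. Ccr3 differed by −2.08 (limma adjusted p = 0.00786). The eosinophil genes Siglecf, Ear2 and Ear1 differed by −3.07, −2.04 and −1.85 (limma adjusted p = 0.000512, 0.00428 and 0.0058). Il4 differed by −1.37 and Csf2rb2 by −1.46 (limma adjusted p = 0.0184 and 0.0308). Among the transcription factors Cebpe differed by −2.03 and Gfi1 by −1.47 (limma adjusted p = 0.0239 and 0.0297), and Gata1 by 1.40 in the other direction (limma adjusted p = 0.00485). Of 17 alternative settings the call was lost in 11 for Csf2rb2, 10 for Gfi1, 8 for Cebpe, 7 for Il4 and 3 for Ccr3, and in 2 each for Siglecf, Ear1, Ear2 and Gata1. Slides 1 to 5 held 1 array of each group, and slide 6 held KO-labelled 7 Gy arrays only.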

How the results depend on the processing

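Under normexp, members called fell to 0 in WT and 1 in KO-labelled blood, with 0 for the difference between responses and 0 at 7 Gy; with no offset these were 1, 1, 0 and 0. Without the 3 WT 7 Gy arrays highest in hepatocyte markers they were 1 in WT, 0 for the difference and 0 at 7 Gy. The 7 Gy call also went to 0 with the 75th percentile over all probes, the deposited table, the median, quantile normalization, no filter on dim probes, the slide block and further near-identical arrays averaged. The replicate block gave 0 at 7 Gy and 1 at 0 Gy and changed no other member call; of 47 calls of named list genes it ended 1. Over all genes, calls at 0 Gy numbered 46 here, 292 with the replicate block, 99 with the slide block and 1 under normexp, and for the difference between responses 2471, 6231, 5164 and 0. Leaving out 1 array gave 2 to 2 in WT, 3 to 3 in KO-labelled blood, 1 to 1 for the difference, 0 to 0 at 0 Gy and 0 to 1 at 7 Gy. Signs that turned under normexp, then with no offset, were Ccr3 in WT (0.64, 0.71), Il5ra in WT (0.47, 0.41), Il5ra at 7 Gy (−0.29, −0.54) and Fcer1a at 7 Gy (−0.093, −0.11); with the offset alone, Il5ra (0.085) and Lat2 (0.13) in KO-labelled blood. Without the 3 WT arrays, Fcer1a (−0.16) and Il5ra (−0.41) turned at 7 Gy, and Il5ra did without the noisy arrays (−0.019) or the 2 arrays out of line in Cpa3 (−0.015). The uncalled Cpa3 difference turned positive with the 75th percentile over all probes (0.13), every array counted (0.043), further near-identical arrays averaged (0.092), quantile normalization (0.22), the replicate block (0.16), the slide block (0.16) and without the 2 arrays (0.87); leaving out 1 array gave −0.61 to 0.56, and for Il5ra at 7 Gy −0.089 to 0.24. Plcg1 at 7 Gy was 0.70 in the deposited table. The cause was not tested. Signal over background limits Il5ra and Fcer1a, each measured on 14 of 24 arrays. No offset, the further averaging and leaving out the 2 arrays were chosen after seeing the data.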
